A study of Homo sapiens with 4 samples.

Results

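Autophagy core genes and receptors were followed in AGS cells, an established line from a human gastric adenocarcinoma. The set holds 39 genes: the machinery that starts, builds and closes the autophagosome, the ubiquitin-like proteins on its membrane, the receptors that bring cargo to it, and a pair of transcription factors of the pathway. The members were a fixed list of gene symbols, each read by its brightest probe set, meaning the one with the highest mean over the arrays among probe sets annotated to exactly 1 gene. All 39 were measured, out of 19775 genes in the deposited table. Control cells (n = 2 arrays) had wild-type PRMT6, and knockout cells (n = 2 arrays) had PRMT6, an arginine methyltransferase that acts on histone H3, disrupted by a lentiviral Cas9 vector. Per the labels' protocols, 1 guide was used, shown with the 12 bases of its 3′ end in capitals (gacggtacTGGACGTGGGCG). Infected cells were kept under puromycin, and limiting dilution gave the knockout clones. The labels do not say whether the knockout arrays came from 1 clone or several, or whether control cells carried a vector or were cloned, so an effect of cloning or of the vector cannot be told apart from that of the knockout. They also do not say that the arrays of a group came from separate cultures, so p-values measure the spread between these arrays, which may be technical.

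Macroautophagy encloses cytoplasm in a double membrane and delivers it to the lysosome. A kinase complex around ULK1 responds to nutrient signals, a class III phosphatidylinositol 3-kinase marks the growing membrane with the lipid PI3P, and WIPI proteins read that lipid. Conjugation enzymes then attach proteins of the ATG8 family (LC3 and GABARAP) to the membrane, where receptors such as SQSTM1 hold on to cargo. TFEB and TFE3 switch on genes of autophagy and lysosomes, and the stress factors ATF4 and CHOP are known to act on several autophagy genes as well. Transcript levels do not measure autophagic flux, which was not assayed here.

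Values are log2 intensities, on which a difference of 1 is a doubling. The median over probe sets was 5.01 to 5.02 on each array, and Pearson's r over probe sets was 0.995 between control arrays, 0.996 between knockout arrays and 0.981 to 0.984 across groups. PRMT6 itself read 8.03 and 8.11 on the control arrays and 7.79 and 7.63 on the knockout arrays, a change of -0.36 (SE 0.09, adjusted p = 0.043, limma). That call did not survive leaving out any single array (0.10 to 0.23), and a transcript level does not test an edit in the coding sequence. Of the 8 epithelial markers, 3 were called higher and 2 lower, which is 62.5% called against 24.0% of all genes. Their changes ran from -0.65 to 1.05. EPCAM, an epithelial adhesion protein, was not called and read between 12.38 and 12.57 on the 4 arrays. Of 6 measured immune markers limma called 0, with 4 at an unadjusted p below 0.05, against 6890 of all 19775 genes. Of 8 fibroblast markers 4 were called higher and 1 lower, also 62.5%. The part of these markers in the results below was not tested.

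In knockout cells, calls were unevenly spread over the roles, a spread that was not itself tested. WIPI1, the LC3 gene MAP1LC3B and the receptor SQSTM1 fell most, by 6.83-fold, 2.73-fold and 2.53-fold. Most other cargo receptors and both transcription factors were also called lower. The 10 conjugation enzymes did not pass the test. VMP1 and PIK3R4 rose. Of the 39 genes, limma called 13 lower and 2 higher at an adjusted p below 0.05, where 11.5% of all genes were called lower and 12.4% higher (24.0% in either direction). The 15 called members are 38.5% of the set. Most members were brighter than the median gene. When only the 9887 genes above the median level were fitted, 5567 were called, and of 37 members 14 were lower and 3 higher. A larger share of those genes than of the members was thus called. Rises made up 53.9% of calls over those genes and 17.6% of member calls. The median change of the 39 genes was -0.08, against -0.01 over all genes. The groups did not overlap for 29 of the 39, against 58.2% of all genes. In RNA from whole cultures, a change in the share of cells with a transcript and a change in its amount per cell cannot be told apart.

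These counts rested on all 4 arrays and on the scaling. Without control 1, 5 members were lower and 2 higher (6.36% and 6.93% of all genes), and without control 2, 6 and 1 (6.07% and 5.18%). Without knockout 1, limma called 3 lower and 0 higher (2 higher at an unadjusted p below 0.05; 1.89% and 0.991% of all genes were called), and without knockout 2, 3 and 1 (1.79% and 0.779%). WIPI1, MAP1LC3B and SQSTM1 kept their calls in each of these fits. Of 11 measured reference genes 6 were themselves called higher and 0 lower (7 at an unadjusted p below 0.05, against 6890 of all 19775 genes, limma). Scaling each array to their mean shifted every gene by -0.31, and 30 members were then called lower and 1 higher, where 51.2% of all genes were called lower and 5.53% higher (56.7% in either direction). Under this scaling rises made up 3.23% of member calls in place of 13.3%, and 9.75% of all calls in place of 51.9%. As the shift was the same for every gene, the 13 called falls could not change sign under it. The rises of VMP1 (0.95) and PIK3R4 (0.48) were larger than the shift, and 9 uncalled members changed sign. Averaging all probe sets per gene left 1 member higher (12.2% of all genes), and gene-specific probe sets left 8 of 29 lower (9.47%). A fit with the array number as a block gave 12 lower and 2 higher (9.80% and 10.3% of all genes).

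**Figure D1:**
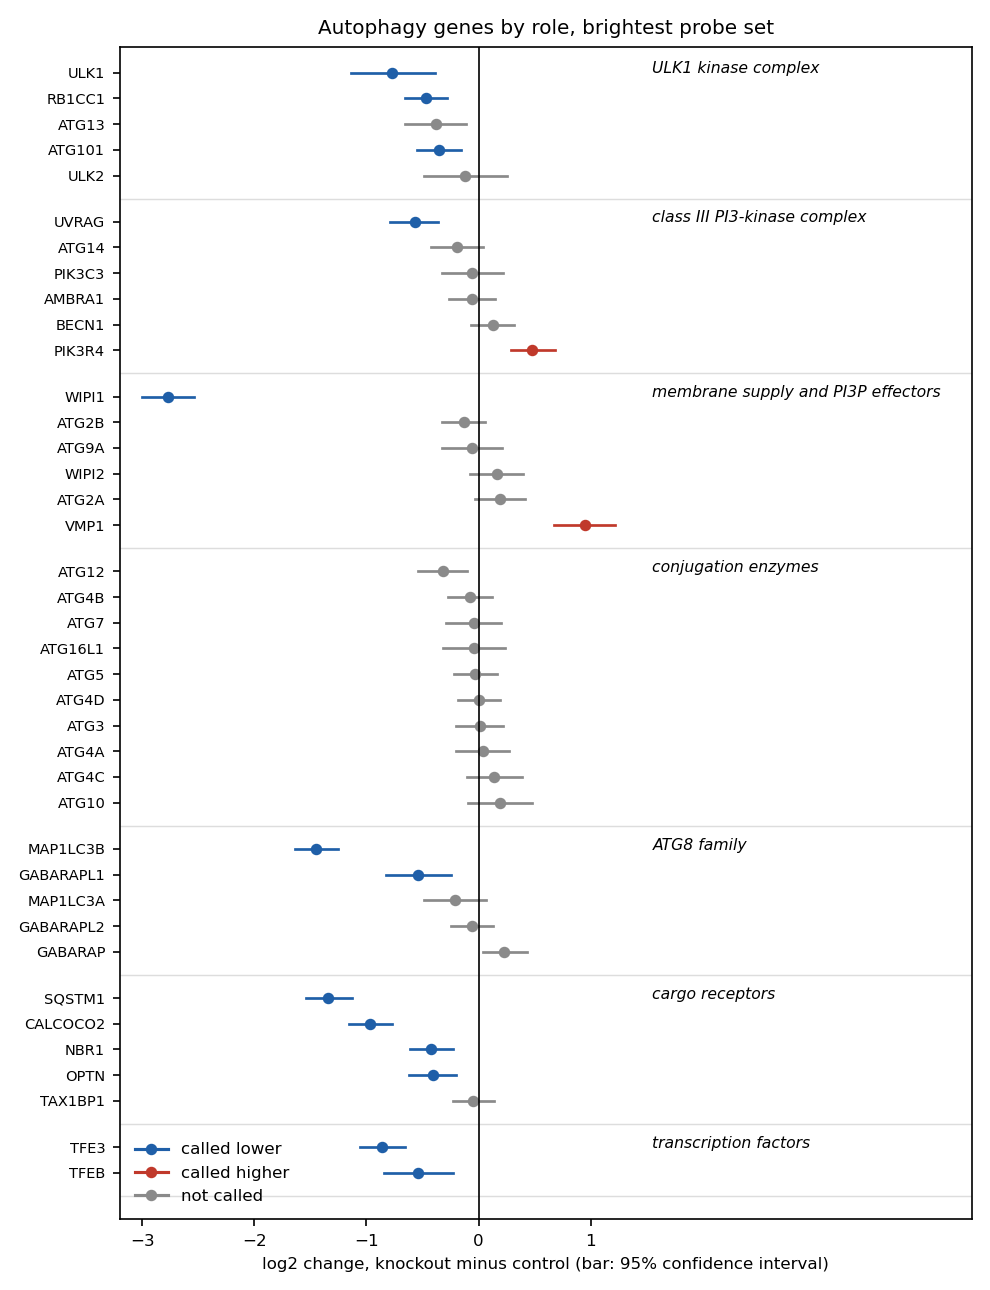
Change in knockout against control cells (log2, x axis) of the 39 autophagy genes in rows grouped by role; points are limma estimates, bars 95% confidence intervals, and colours mark genes called lower, called higher or not called. WIPI1 stands at -2.77, the 10 conjugation enzymes lie between -0.32 and 0.19, and VMP1 at 0.95 is the highest.

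Starting with initiation, 3 of the 5 genes of the ULK1 kinase complex were called lower, against 11.5% of all genes. This contrast and those by role below do not allow for the brightness of most members. ULK1, the nutrient-responsive kinase itself, read 7.87 and 7.54 in control cells and 6.81 and 7.07 in knockout cells. Both knockout arrays were below both control arrays, and the change was -0.77 (SE 0.15, adjusted p = 0.019). RB1CC1, the scaffold also known as FIP200, read 9.43 on both control arrays and 8.99 and 8.93 on the knockout arrays, a change of -0.47 (SE 0.08, adjusted p = 0.011). ATG101, which stabilizes ATG13, went from 9.22 and 9.19 to 8.84 and 8.87, a change of -0.35 (SE 0.08, adjusted p = 0.026). ATG13, the adaptor that bridges kinase and scaffold, missed the threshold at -0.38 (adjusted p = 0.058), and its second probe set was called lower at -0.53 (adjusted p = 0.041 over all probe sets). The paralogous kinase ULK2 changed by -0.12 with a 95% confidence interval of -0.49 to 0.25; its brightest probe set stayed between 3.92 and 4.33, and whether that exceeds background is not known, as no detection calls were used. The RB1CC1 and ATG101 calls failed whichever array was dropped (0.055 to 0.16), and that of ULK1 without control 1, knockout 1 or knockout 2 (0.085, 0.15 and 0.096).

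The lipid kinase complex that follows went in both directions. UVRAG, a subunit of the endosomal form of the complex, read 7.18 on both control arrays and 6.68 and 6.54 on the knockout arrays, a change of -0.57 (SE 0.09, adjusted p = 0.0087). PIK3R4, the regulatory subunit that holds the complex together, rose from 7.93 and 7.88 to 8.37 and 8.42, a change of 0.48 (SE 0.08, adjusted p = 0.011). Each of these differences was larger than the gap between arrays of a group. The catalytic subunit PIK3C3 (-0.06), BECN1 (0.13), ATG14 (-0.19), which directs the complex to the autophagosome, and the BECN1 partner AMBRA1 (-0.06) did not pass the test. For UVRAG the call failed whichever array was dropped (adjusted p 0.054 to 0.092). PIK3R4 lost its call without control 2, knockout 1 or knockout 2 (0.061, 0.088 and 0.11), when its probe sets were averaged (0.22, adjusted p = 0.10) and under reference gene scaling (0.17, adjusted p = 0.10).

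Among genes of membrane supply and PI3P reading, WIPI1 had the largest change of the set. This PI3P-binding protein marks sites of autophagosome formation. Its arrays read 9.62 and 9.77 in control cells and 6.89 and 6.96 in knockout cells, so the means fell from 9.69 ± 0.11 to 6.92 ± 0.05 (SD, n = 2). The change was -2.77 (SE 0.09, 95% confidence interval -3.0 to -2.54, adjusted p = 0.00024), many times the spread between arrays, and a gene-specific probe set gave -2.78. WIPI2, the paralog that recruits the conjugation machinery, changed by 0.16 with an interval of -0.08 to 0.40, which does not meet that of WIPI1. The lipid transfer proteins ATG2A (0.19) and ATG2B (-0.13) and the membrane carrier ATG9A (-0.06) did not pass the test.

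VMP1, an endoplasmic reticulum scramblase needed to form autophagosomes, was the member with the largest rise. It read 5.99 and 5.96 in control cells and 7.05 and 6.8 in knockout cells, a change of 0.95 (SE 0.11, adjusted p = 0.0041), or 1.93-fold. The knockout arrays lay above the control arrays, and the call was lost without knockout 1 (0.82, adjusted p = 0.054). The value rests on 1 probe set, since 3 brighter ones are annotated to VMP1 together with the microRNA gene MIR21 at the same locus and were outside the rule. Of these 3, 2 were called higher (1.3 and 1.16), and 1 changed by 0.16 without a call and with overlapping groups.

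The enzymes that process and attach ATG8 proteins showed no call on their brightest probe sets. Limma called 0 of 10, with 1 at an unadjusted p below 0.05, against 6890 of all 19775 genes. They comprise the E1-like ATG7, the E2-like ATG3 and ATG10, the ATG12, ATG5 and ATG16L1 conjugate and the proteases ATG4A to ATG4D. ATG12, the ubiquitin-like protein, came nearest, with 9.44 and 9.53 in control cells against 9.21 and 9.11 in knockout cells (-0.32, adjusted p = 0.0505); its second probe set gave 0.04. The other 9 lay between -0.08 for ATG4B and 0.19 for ATG10. On the brightest probe sets of all 10, the 95% confidence intervals ran from -0.54 to 0.48. Changes as large as that of MAP1LC3B lie outside each of these intervals. Some dimmer probe sets moved further. Uncalled ones stood at -0.46 for ATG5, -0.46 for ATG4B and 0.42 for ATG16L1, and a dim one of ATG7 was called higher at 0.79.

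Of the 5 genes of ATG8 proteins, which these enzymes act on, 2 were called lower, against 11.5% of all genes. MAP1LC3B, the LC3 gene most used as an autophagosome marker, read 11.25 and 11.31 in control cells and 9.83 and 9.84 in knockout cells. The arrays of a group were nearly equal and the groups were far apart: the change was -1.45 (SE 0.08, 95% confidence interval -1.64 to -1.25, adjusted p = 0.00061), and its second probe set gave -1.86. Both of its probe sets carry a suffix for probes shared between transcripts, and signal from the near-identical MAP1LC3B2 cannot be told apart in them; the probe set of MAP1LC3B2 itself changed by 0.09 between 3.88 and 4.25. GABARAPL1, a stress-responsive GABARAP paralog, went from 7.29 and 7.5 to 6.76 and 6.96, a change of -0.54 (SE 0.12, adjusted p = 0.026). A probe set annotated to GABARAPL1 and GABARAPL3 together, outside the rule, gave -0.90, and the second GABARAPL1 probe set -0.83. GABARAP went the other way without passing the test (0.23, interval 0.04 to 0.43, adjusted p = 0.095). GABARAPL2 (-0.06, interval -0.25 to 0.13) and MAP1LC3A (-0.21, interval -0.49 to 0.07) did not pass it either. Dropping any single array ended the GABARAPL1 call (adjusted p 0.059 to 0.18).

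Of the 5 cargo receptors 4 were called lower, against 11.5% of all genes. SQSTM1, or p62, which links ubiquitinated cargo to LC3 and is itself degraded by autophagy, read 11.83 and 11.75 in control cells and 10.48 and 10.42 in knockout cells. It fell by 1.34 on the log2 scale (SE 0.08, interval -1.54 to -1.13, adjusted p = 0.00086), with no overlap of the groups. CALCOCO2, or NDP52, a receptor for bacteria and mitochondria, went from 9.77 and 9.72 to 8.76 and 8.79, a change of -0.97 (SE 0.08, adjusted p = 0.0017). NBR1, a ubiquitin receptor related in architecture to SQSTM1, went from 9.77 and 9.79 to 9.34 and 9.38 (-0.42, SE 0.08, adjusted p = 0.016). OPTN, a receptor phosphorylated by the kinase TBK1, went from 9.43 and 9.34 to 8.93 and 9.01 (-0.41, SE 0.08, adjusted p = 0.021). The fifth receptor, TAX1BP1, a paralog of CALCOCO2, stayed at 11.15 and 11.17 against 11.12 and 11.11, with a change of -0.05 and an interval of -0.23 to 0.14. The intervals of CALCOCO2 (-1.16 to -0.77) and TAX1BP1 did not meet.

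Support for the receptor calls was uneven. CALCOCO2 lost its call without knockout 1 (adjusted p = 0.0504) or knockout 2 (0.0501), and NBR1 and OPTN lost theirs whichever array was dropped (0.062 to 0.15). Averaging the probe sets of NBR1 gave -0.15 (adjusted p = 0.29) and its only gene-specific one gave 0.14 (adjusted p = 0.43), which is dim with a mean of 3.23. The gene-specific probe set of OPTN gave -0.28 (adjusted p = 0.14). With probe sets averaged, SQSTM1 stood at -0.72 and CALCOCO2 at -0.44, both still called (adjusted p = 0.0019 and 0.013).

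Both transcription factors were called lower, against 11.5% of all genes. TFE3 read 9.70 and 9.62 in control cells and 8.81 and 8.79 in knockout cells, a change of -0.86 (SE 0.08, adjusted p = 0.0024). TFEB read 6.24 and 5.99 against 5.67 and 5.49, a change of -0.54 (SE 0.12, adjusted p = 0.030). For both, every knockout array lay below every control array. Activity of these factors depends on their location in the cell, which RNA does not show. TFE3 lost its call without knockout 1 or knockout 2 (0.054 and 0.058), and TFEB whichever array was dropped (0.056 to 0.21). The second TFEB probe set gave -0.18, and TFE3 stood at -0.39 with its probe sets averaged (adjusted p = 0.027).

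**Figure D2:**
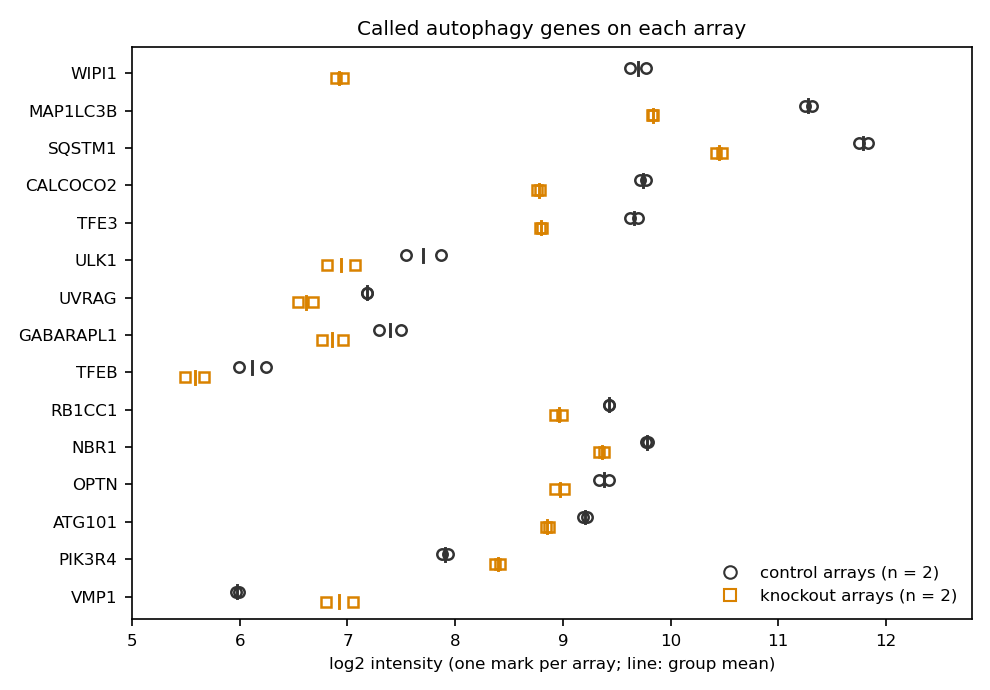
Log2 intensity (x axis) of the 15 called autophagy genes in rows, with circles for the 2 control arrays, squares for the 2 knockout arrays and short lines for group means. The groups are apart in every row, by the widest margin for WIPI1 at 9.62 and 9.77 against 6.89 and 6.96.

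Most members had further probe sets, which read other stretches of the same transcripts. The 39 genes had 102 single-gene probe sets, of which 17 were called lower and 3 higher when p-values were adjusted over all 54613 probe sets, where 6.38% were called lower and 6.68% higher (13.1% in either direction). Under reference gene scaling 62 were called, against 41.7% of all probe sets. Of the 27 members with several probe sets, only WIPI1, MAP1LC3B, SQSTM1 and CALCOCO2 had more than 1 called, each time lower. In the others, calls in both directions could not occur. For SQSTM1 the 3 brightest probe sets fell, by 1.34, 1.06 and 1.44, while the other ones stood at 0.05 and 0.21 and were not called. For CALCOCO2 the brighter pair fell by 0.97 and 0.79. For TFE3 only the brightest was called, with others at -0.44, -0.49 and 0.21. ATG7 had a dim probe set, with a mean of 3.29, that was called higher at 0.79 (adjusted p = 0.019), while its brightest stood at -0.04. ATG101, GABARAPL1 and TFEB were not called by their brightest probe sets at this adjustment (0.059, 0.053 and 0.058).

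**Figure D3:**
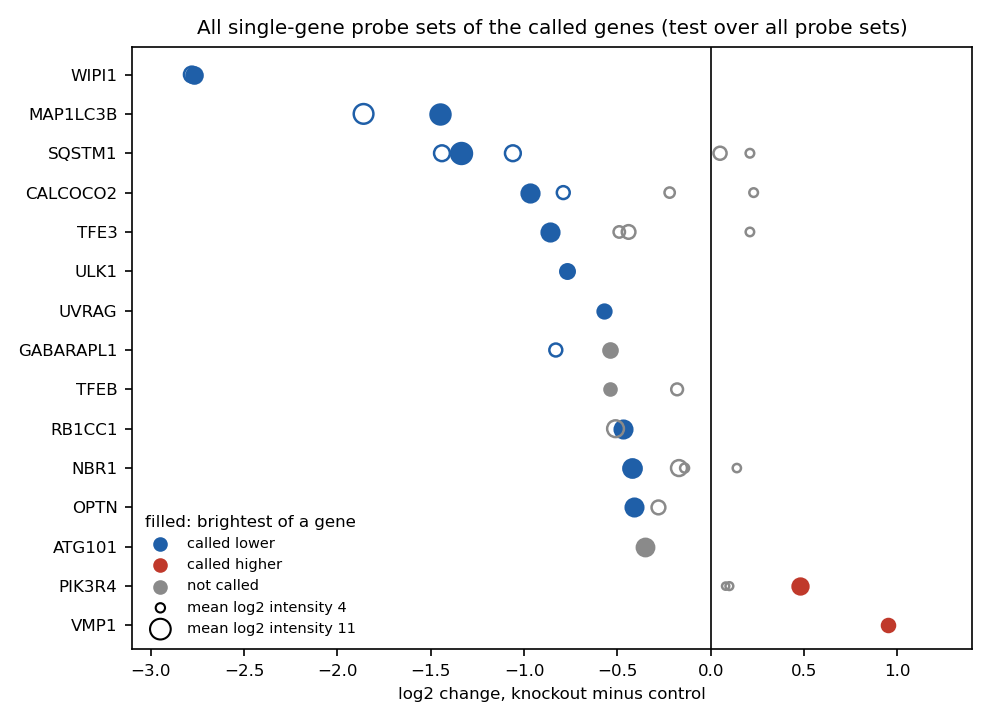
Change in knockout against control cells (log2, x axis) of each single-gene probe set of the 15 called genes; filled circles are the brightest probe set of a gene, open circles the others, circle area grows with mean log2 intensity, and colours give the call over all probe sets. The WIPI1 pair coincides at -2.77 and -2.78, whereas SQSTM1 has 3 probe sets called lower and others at 0.05 and 0.21.

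Promoter windows were examined because 13 of the 39 members were called lower. Whether these falls are linked was not tested. RefSeq windows (GRCh38.p14, 250 bases before to 50 after a transcript start) were found for 35 of the 39 genes, 45 windows in all. Motifs were searched on both strands. CACGTG, the core bound by TFEB and TFE3, was in windows of 2 members, ATG3 and ATG14, neither of which was called, and in 7.26% of all 35116 windows. The longer CLEAR palindrome, that core preceded by GT and followed by AC, was in 0 member windows and 0.353% of all. TGATGNAAN, a pattern of sites bound by ATF4 with a C/EBP partner, was in 0 member windows and 3.61% of all. TGACGTCA, the cyclic AMP response element, was in the GABARAPL1 window and in 1.85% of all, and its part TGACGT was in windows of 5 members (ATG3, ATG10, CALCOCO2, GABARAPL1 and VMP1) and in 7.98% of all. GGGCGG, the GC box, was in at least 1 window of 25 of the 35 members, including all 11 fallen members with a window. The share of all genes with at least 1 such window was not taken, so these counts by gene have no background here. Counted by window, the GC box was in 31 of the 45 member windows and 45% of all windows. The 250 bases before the start were 73.6% G or C at the median over windows of fallen members, 62.4% over all member windows and 58% over all windows. These matches describe letters within short windows and do not show binding.

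The upstream bases of the 3 members with the largest falls are shown with the GC box in capitals on either strand, first base -250 and last base -1 from the start. WIPI1 lies at chr17:68457497-68457746 on the minus strand, MAP1LC3B at chr16:87392086-87392335 on the plus strand, and SQSTM1, with 3 windows listed of which 1 is shown, at chr5:179820655-179820904 on the plus strand. WIPI1 held 9 GC boxes, a number reached by 0.285% of all windows. MAP1LC3B held 3 and SQSTM1 held 4, numbers reached by 13.9% and 7.63% of all windows.
WIPI1: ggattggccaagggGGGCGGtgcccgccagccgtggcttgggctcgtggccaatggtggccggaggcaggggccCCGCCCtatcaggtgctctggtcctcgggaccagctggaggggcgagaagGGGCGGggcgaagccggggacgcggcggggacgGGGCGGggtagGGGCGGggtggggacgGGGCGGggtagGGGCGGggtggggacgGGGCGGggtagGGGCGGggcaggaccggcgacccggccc
MAP1LC3B: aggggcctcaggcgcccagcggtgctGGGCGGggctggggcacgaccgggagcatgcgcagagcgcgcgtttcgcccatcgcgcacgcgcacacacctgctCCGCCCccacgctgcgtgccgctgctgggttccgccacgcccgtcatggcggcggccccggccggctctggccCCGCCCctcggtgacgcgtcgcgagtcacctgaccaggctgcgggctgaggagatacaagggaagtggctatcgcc
SQSTM1: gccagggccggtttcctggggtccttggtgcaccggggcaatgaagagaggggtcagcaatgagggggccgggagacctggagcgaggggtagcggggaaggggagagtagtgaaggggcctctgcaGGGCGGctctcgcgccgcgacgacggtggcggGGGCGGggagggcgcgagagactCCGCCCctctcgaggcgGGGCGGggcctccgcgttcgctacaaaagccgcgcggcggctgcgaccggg

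Stretches with the other matches follow. CALCOCO2 (chr17:48830935-48831034, plus strand, -100 to -1) has TGACGT in capitals at -63, and GABARAPL1 (chr12:10212777-10212876, plus strand, -100 to -1) has TGACGTCA in capitals at -30; both genes were lower in knockout cells. ATG3 (chr3:112561943-112562022, minus strand, -60 to 20) is shown as the member with a pair of CACGTG cores, in capitals at -18 and 6, and a change of 0.01.
CALCOCO2: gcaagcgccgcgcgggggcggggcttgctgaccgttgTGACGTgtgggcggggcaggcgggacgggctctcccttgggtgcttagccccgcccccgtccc
GABARAPL1: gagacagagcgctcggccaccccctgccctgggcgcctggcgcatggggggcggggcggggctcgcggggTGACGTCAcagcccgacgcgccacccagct
ATG3: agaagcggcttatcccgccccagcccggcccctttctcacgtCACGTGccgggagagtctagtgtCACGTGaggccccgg

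Neighbouring parts of the pathway were read from separate gene lists, with 118 measured genes in all. The lists were chosen with earlier results of these data known, so their shares called are not independent of those results. Most of these genes were brighter than the median gene. When only genes above the median level were fitted, 59 of 102 listed genes were called, against 5567 of all 9887, a similar share. This was counted over the lists together and not for each list. The contrasts with 24.0% given for single lists therefore do not allow for brightness. Of 33 measured genes of nutrient and energy signalling upstream of ULK1, 8 were lower and 6 higher (median 0.01), so 42.4% were called against 24.0% of all genes. DEPTOR, an inhibitor of the kinase mTOR, went from 7.64 and 7.63 to 5.05 and 4.97, a change of -2.63 (SE 0.08), or -1.29 with its probe sets averaged. PRKAB2, a regulatory subunit of the energy sensor AMPK, changed by -2.53 (SE 0.09), DDIT4, a stress-induced inhibitor of mTOR complex 1, by -2.44 (SE 0.13), and SESN2, a leucine sensor that restrains the same complex, by -1.50 (SE 0.12). In limma their adjusted p lay between 0.00022 and 0.0019. SESN2 lost its call without knockout 1 or knockout 2 (0.053 and 0.051).

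Of 21 other nucleation, lipid supply and conjugation factors 6 were lower and 0 higher (median -0.13), and 28.6% were called against 24.0% of all genes. In either direction, 11 of the 21 had an unadjusted p below 0.05, against 6890 of all 19775 genes (limma). TMEM41B, a scramblase that works with VMP1, read 10.92 and 10.90 in control cells and 9.80 and 9.73 in knockout cells (-1.14, SE 0.08, adjusted p = 0.0011). On the probe sets used, the pair of partners differed in direction. The intervals of TMEM41B (-1.34 to -0.95) and VMP1 (0.67 to 1.22) lay on opposite sides of 0. WDR45, a WIPI family member, changed by -0.82 (adjusted p = 0.0069), the PI3-kinase complex subunit NRBF2 by -0.54 (0.0083) and TECPR1, a tethering protein, by -0.52 (0.038). WDR45 lost its call without knockout 1 or 2 (0.080 and 0.096), and NRBF2 and TECPR1 lost theirs also without control 1 (highest 0.090 and 0.23). The gene-specific probe set of TECPR1 gave -0.06 (adjusted p = 0.73).

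Among 24 measured organelle and other cargo receptors 4 were lower and 1 higher (median -0.02). That is 20.8% called, no more than the 24.0% of all genes. CCPG1, a receptor for endoplasmic reticulum, read 9.32 and 9.37 in control cells and 7.37 and 7.23 in knockout cells (-2.05, SE 0.09, adjusted p = 0.00043), and kept its call whichever array was dropped. FUNDC1, a receptor on mitochondria, rose by 0.73 (SE 0.08, adjusted p = 0.0035), a call lost without knockout 1 or 2 (0.061 and 0.066). RETREG1 and ATL3, further receptors of the endoplasmic reticulum, changed by -0.66 (adjusted p = 0.0091) and -0.55 (0.0082). RETREG1 lost its call whichever array was dropped (0.058 to 0.078) and stood at 0.04 with its gene-specific probe set (0.90), and ATL3 was lost without control 2, knockout 1 or knockout 2 (0.055, 0.088 and 0.078).

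For fusion with the lysosome, 6 of 24 measured genes were lower and 2 higher (median -0.01), which is 33.3% called against 24.0% of all genes. BORCS5, a subunit of a complex that positions lysosomes, changed by -0.82 (adjusted p = 0.0052), MON1B, part of the exchange factor for RAB7, by -0.78 (0.0049), and the tethering adaptor PLEKHM1 by -0.59 (0.0069). VPS18, a core subunit of the tethering complexes, rose by 0.72 (0.0070). These 4 calls were lost without knockout 1 or knockout 2 (adjusted p 0.066 to 0.089), that of VPS18 also without control 2 (0.053), and averaging the probe sets of BORCS5 gave -0.38 (0.17) and those of PLEKHM1 -0.37 (0.045).

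Of 16 measured transcription factors and other regulators known to act on autophagy genes, 11 were lower and 1, the kinase gene EIF2AK2, was higher (0.50). The median was -0.61, and 75% were called against 24.0% of all genes. This list, too, was chosen with earlier results of these data known, so that contrast is not an independent result. ATF3 changed by -2.81 (SE 0.12), DDIT3, which encodes CHOP, by -2.71 (SE 0.10), its partner CEBPB by -2.17 (SE 0.13) and EIF2AK3, the stress kinase PERK, by -1.94 (SE 0.09). Adjusted p-values of these 4 were 0.00034 to 0.00083. The size of some changes depended on the probe set: ATF3 stood at -0.70 with its brightest gene-specific one, and EIF2AK3 at -0.94 with its probe sets averaged, both still called (adjusted p = 0.0048 and 0.0010). A list of 12 members known from published work as dependent on ATF4 or CHOP in starved cells was read as well. Of these 3 were lower (MAP1LC3B, SQSTM1 and NBR1), 0 were higher, and the median was -0.04. In either direction, 5 of the 12 had an unadjusted p below 0.05, against 6890 of all 19775 genes (limma). With 25% called, this list was near the 24.0% of all genes. Whether the fall of these regulators bears on the members was not tested.

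**Figure D4:**
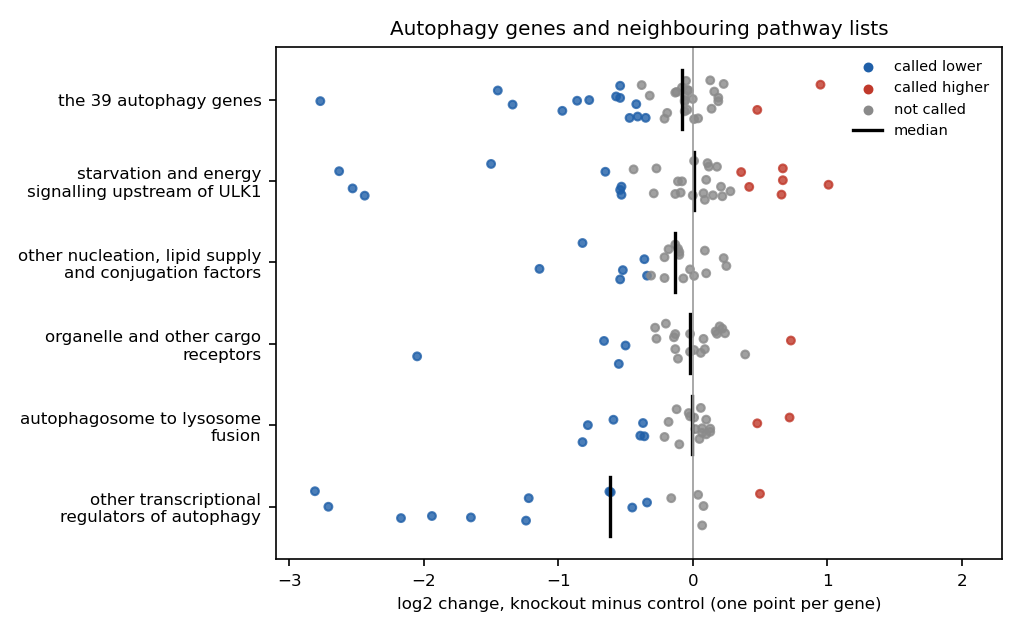
Change in knockout against control cells (log2, x axis) of each gene in the autophagy set and in 5 neighbouring lists (rows); points are genes coloured by call and black lines are medians. The list labelled as transcriptional regulators, which also holds kinase genes, has a median of -0.61. The medians of the other rows lie between -0.13 and 0.01. Lists were chosen with earlier results of these data known.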

How the data were processed

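Total RNA of 2 control and 2 knockout samples was amplified, labelled with biotin and hybridised to 1 array each, per the labels' protocols. The authors deposited a table of log2 intensities of 54613 probe sets; the submitters' processing notes list RMA and affy, and values from 1.64 to 14.16 show the log2 scale. RMA sets arrays to nearly equal distributions, so differences are relative to other transcripts, and it compresses those of dim probe sets. Detection calls were not used here. Symbols were taken from the platform annotation and updated through Entrez numbers to RefSeq (GRCh38.p14): 41091 probe sets had 1 gene symbol, 1801 several and 11721 none listed, and 41037 matched RefSeq.

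The knockout and control arrays were fitted in limma 3.58.1 under R 4.3.3 (lmFit and eBayes without covariates; 2 residual and 3.27 prior degrees of freedom), with Benjamini-Hochberg adjustment over all 19775 genes and a threshold of 0.05. Intervals are 95% confidence intervals. The number of arrays limits the precision. Array values are given for every called member and PRMT6, and up to 4 called genes are named per other list; EPCAM, MAP1LC3B2, EIF2AK2, uncalled members and single probe sets were also named after their values were seen. Alternatives changed the probe set per gene, the filter, the prior, the scaling, the block or the arrays. The script was tested on simulated data, with 67, 67 and 66 genes changed by 0.5, 1 and 2. It recovered 0%, 52.2% and 84.8% of these, and 1 unchanged gene was called. Far fewer genes changed there than were called in these data, so the shares recovered may differ here. Members and lists were chosen with earlier results of these data known.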

Additional observations from a re-analysis of the deposited data

Results flagged for a closer look

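Among probe sets left out of the comparison because they are annotated to more than 1 gene, 2 of the 3 annotated to MIR21 and VMP1 together were higher in knockout than in control cells. The first read 10.02 and 10.07 on the control arrays and 11.48 and 11.21 on the knockout arrays, a change of 1.3 (SE 0.12, adjusted p = 0.0063 over all probe sets, limma). The next read 6.73 and 7.00 against 8.21 and 7.84, a change of 1.16 (SE 0.17, adjusted p = 0.016). The remaining one, at 10.45 and 10.37 against 10.71 and 10.44, overlapped between groups and changed by 0.16 (interval -0.15 to 0.47). Signal from VMP1 and from the primary transcript of MIR21 cannot be told apart in them, and the single-gene VMP1 probe set changed by 0.95.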

How the results depend on the processing

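Reference gene scaling moved most counts: 11208 of all genes, 30 members lower and 1 higher, 82 of 118 genes of the other lists and 62 of 102 member probe sets were called, with medians of -0.39 over members and -0.32 over all genes. With probe sets averaged per gene 1 member was higher and the member median was -0.14. With gene-specific probe sets, 8 of 29 members were lower, the median was -0.13, and NBR1 (0.14) and RETREG1 (0.04) reversed; fewer genes have such a probe set. With equal medians over genes the medians were -0.02 over members and 0.05 over all genes, and with only the brighter genes the latter was 0.02. Leaving out 1 array gave 508 to 2629 genes, 3 to 6 members lower, 0 to 2 higher, 11 to 32 genes of the other lists, member medians of -0.13 to -0.08 and overall medians of -0.03 to 0.02. It also gave 0 called member probe sets in each fit (25 to 36 at an unadjusted p below 0.05, limma), where 0 of all probe sets were called. A fit with 1 array in a group assumes that it varies like the other group. With the replicate block, 12 members were lower, 2 higher and 3972 genes were called; among the named genes ATG101, TECPR1 and PRMT6 lost their calls (adjusted p = 0.055, 0.051 and 0.076) and no other call changed. Deviations of same-numbered arrays correlated at 0.05 over genes, so the numbers were not taken to pair the samples. Of 316 values of 36 named genes under alternatives other than leaving out arrays, 296 kept their direction and side of the threshold, 18 lost the call and 2 reversed. Fits that altered only the filter, the prior, the block or the adjustment left each change as it was. Direction could therefore not reverse in those fits. Signal over background was not assessed, which limits dim probe sets such as those of ULK2.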
